A study of Mus musculus with 34 samples.

Results

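The sites described here were distal binding sites of STAT5 that carried no peak of H3K27 acetylation (H3K27ac) in mouse bone marrow-derived dendritic cells (BMDCs). They were chosen from the STAT5 ChIP-seq peaks of wild-type (WT) cells in 3 steps. Peaks that overlapped a p65 (RelA) peak of lipopolysaccharide (LPS)-treated WT cells were set aside, then peaks that touched a promoter (2.5 kb either side of a gene's start site), then peaks that overlapped an H3K27ac peak of untreated WT cells. This left 2760 of 8185 WT STAT5 peaks (33.7%). Of the others, 1477 had a p65 peak, 1248 lay at a promoter and 2700 were distal with H3K27ac. The last class is the one the 2760 sites are compared with. STAT5 in WT, p65 in WTLPS and H3K27ac in WT chose the sites, so those values are given as description.

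All cells came from C57BL/6 mice of 8 weeks carrying CreER. WT cells had no other allele named in the labels (CreER), and KO cells carried CreER;CTCF fl/fl. Bone marrow of both genotypes was cultured with GM-CSF for 6 days with 4-OH tamoxifen on the first day, so the controls also carry the recombinase and received the drug, and CTCF was removed in culture while the cells differentiated. CD11c+ cells were then taken with microbeads. WTLPS and KOLPS cells received LPS at 100 ng/ml for 3 h, and cells for STAT5 were stimulated again with GM-CSF for 15 min. STAT5 was mapped in WT and KO without LPS, and p65, CTCF, SMC1, H3K27ac, H3K4me1, H3K4me3 and H3K27me3 in all 4 conditions. The labels give no such stimulation for these other antibodies. STAT5 peaks of stimulated cells are thus set beside peaks of cells without that step.

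STAT5 is activated by the GM-CSF receptor through JAK2, enters the nucleus as a dimer and binds a palindromic motif. H3K4me1 marks enhancers whether or not they are active, H3K27ac marks active enhancers and promoters, H3K4me3 marks promoters, and H3K27me3 is laid down by Polycomb at repressed chromatin. SMC1 is a subunit of cohesin, the ring complex that extrudes chromatin loops, and CTCF is the DNA-binding protein at which cohesin halts.

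The STAT5 motif TTCNNNGAA, in which TTC and GAA stand 3 bases apart, reads the same on both strands. It lay within 50 bp of the summit in 4 of the 8 strongest of the 2760 sites that had a STAT5 peak in KO, and in 1 of the 5 strongest that had none, where strength is the -log10 q of the WT peak. These 5 windows are shown because they carry the motif at the strongest sites of both outcomes. The sequences are the plus strand of GRCm38 (mm10), 50 bp either side of the summit, with the motif in capitals.
Ibtk site, kept in KO, chr9:85786691-85786791: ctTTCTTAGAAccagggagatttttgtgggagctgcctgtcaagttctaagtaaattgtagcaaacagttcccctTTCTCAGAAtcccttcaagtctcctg
Gm49171 site, kept in KO, chr14:73980423-73980523: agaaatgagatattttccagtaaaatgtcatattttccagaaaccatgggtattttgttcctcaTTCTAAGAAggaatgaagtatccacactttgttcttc
Prdm13 site, kept in KO, chr4:21539729-21539829: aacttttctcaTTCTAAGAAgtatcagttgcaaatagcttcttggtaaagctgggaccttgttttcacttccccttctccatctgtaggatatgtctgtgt
Htra3 site, kept in KO, chr5:35631388-35631488: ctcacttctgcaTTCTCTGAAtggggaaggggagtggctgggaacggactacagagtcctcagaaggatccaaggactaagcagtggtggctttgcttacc
Ankrd28 site, not kept in KO, chr14:31785789-31785889: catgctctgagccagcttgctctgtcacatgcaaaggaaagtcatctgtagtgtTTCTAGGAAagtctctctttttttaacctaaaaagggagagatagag
The Ibtk window held the motif in 2 places and the others in 1. The names are those of the gene a site lay in or, for Ibtk, Prdm13 and Htra3, of the nearest protein-coding start site.

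Each antibody and condition has 1 peak list, so no value here has a replicate and no test over samples can be made. Shares are given with 95% Wilson intervals and differences between shares with Newcombe intervals, which cover counting error over sites and not the spread between cultures. In WT, all 10 dendritic and myeloid marker genes had an H3K4me3 peak over the start site, and none of the 3 T cell, 3 B cell or 3 erythroid markers had one. Of the 3 epithelial and liver markers, Epcam had a peak. The peak lists do not show the deletion itself, but the CTCF list shrank from 60537 peaks in WT to 20151 in KO, and from 54020 in WTLPS to 11576 in KOLPS. The lists differed in coverage: the background estimated from the peaks' fold and p values was 1.33 fragments per base for STAT5 in WT and 1.70 in KO, and 1.17, 1.20, 0.748 and 0.801 for H3K27ac in WT, WTLPS, KO and KOLPS.

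STAT5 at the 2760 sites was weaker than at distal sites with H3K27ac. The median fold enrichment over background was 6.87 (quartiles 5.58 and 9.88), against 8.16 (6.01 and 13.7), and the median -log10 q was 9.38 against 11.8. The peaks were also narrower, with a median of 306 bp against 387 bp. The class nevertheless held the site with the highest fold enrichment of the WT list, 83.8.

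Most sites lay in introns (51.3%) or outside genes (45.3%), and 3.37% in exons. The share outside genes was higher by 3.44 points (95% interval 0.806 to 6.06) than at distal sites with H3K27ac. The median distance to the nearest protein-coding start site was 39.6 kb, against 29.6 kb, and 25.8% of sites lay over 100 kb from one, against 16.5% (difference 9.35 points, 7.20 to 11.5). The sites were also more isolated: 21.6% (20.1 to 23.2) had another STAT5 summit within 10 kb, against 44.5% (42.7 to 46.4) of distal sites with H3K27ac. Sites without H3K27ac thus lay farther from start sites and from other STAT5 peaks.

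The absence of H3K27ac covered a wide range of settings. The gap to the nearest WT H3K27ac peak had a median of 9.53 kb, 661 sites (23.9%) lay within 1 kb of such a peak, and 633 lay over 50 kb from any. Just inside the rule were 174 sites whose gap was at most 100 bp, of which 56.9% had SMC1 and 52.9% a KO STAT5 peak. Just outside it were 342 distal sites that shared at most 100 bp with an H3K27ac peak, of which 59.6% had SMC1 and 57.3% a KO STAT5 peak. The median STAT5 fold was 7.02 inside and 6.87 outside. H3K27ac lay at 40.8% of the sites inside and 49.1% of those outside in WTLPS, at 39.1% and 42.1% in KO, and at 21.8% and 29.8% in KOLPS. At the promoter boundary, 113 sites within 3.5 kb of a start site had a median STAT5 fold of 6.44, and 178 promoter sites without H3K27ac over 1.5 kb from one had 6.66.

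The 8 strongest sites that had a STAT5 peak in KO covered 50.7- to 83.8-fold enrichment in WT. The strongest lay in an intron of Hecw2, a ubiquitin ligase, at chr1:53873502-53874356 in mm10, with a STAT5 fold of 83.8 in WT and 58.1 in KO. It had H3K4me1 in all 4 conditions, SMC1 in WT alone and H3K27ac in KO alone, where its fold was 4.00. The second, on chromosome 18, lay 47.4 kb from the start of Ino80c, a chromatin remodelling subunit, and had STAT5 folds of 65.3 and 42.9. It had H3K27ac in WTLPS (fold 5.92) and in KO (4.47).

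The site in Gm49171, a gene model with no assigned function, had STAT5 folds of 60.6 in WT and 62.9 in KO. The site nearest to Prdm13 had 59.7 and 61.0, lay 146 kb from that start site, and had no H3K27ac in any list. The site nearest to Htra3, a secreted serine protease gene, had 59.3 and 51.0 and carried H3K4me1 in all 4 conditions, with no peak of CTCF, SMC1, p65 or another histone mark in any list. Of these 3 sites, the Gm49171 site had H3K27ac, in WTLPS at a fold of 3.19.

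The site nearest to Neil3, a DNA glycosylase gene, lay at chr8:53699230-53700468 and had STAT5 folds of 57.6 in WT and 74.7 in KO. By STAT5 it was also the strongest site with a WT CTCF peak: the CTCF fold was 14.4 in WT, and no CTCF or SMC1 peak was listed in KO or KOLPS. The site nearest to Ibtk had 52.0 and 48.4, with H3K4me3 in all 4 conditions. The site nearest to Dusp4, a MAP kinase phosphatase gene, had 50.7 and 44.7, with SMC1 in all 4 conditions at folds of 5.28 to 6.78. All 8 sites thus kept STAT5 at 42.9-fold or more in KO, and 3 of them were higher in KO than in WT.

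The 5 strongest sites without a STAT5 peak in KO were weaker, from 2.75- to 19.8-fold. The site in an intron of Ankrd28, chr14:31785692-31786132, had a STAT5 fold of 19.8 in WT, and with it CTCF at 13.7 and SMC1 at 15.3, of which neither was listed in KO or KOLPS. A site in an intron of Gm29418 had 17.2 and SMC1 in WT and WTLPS. A site in an intron of Ube2s, a ubiquitin-conjugating enzyme gene, chr7:4795908-4796411, had a STAT5 fold of 15.5, a CTCF fold of 16.6 in WT and 4.30 in KO, and SMC1 in WT and WTLPS. The other two were neighbours on chromosome 18. Their STAT5 folds were 2.75 and 5.03, and they overlapped peaks of 18 and 15 lists, H3K4me3 in all 4 conditions among them. They thus ranked high by q value but low by fold.

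The next question was whether STAT5 stayed at these sites when CTCF was lost. A KO STAT5 peak overlapped 1623 of the 2760 sites, 58.8% (57.0 to 60.6), against 1824 of 2700 distal sites with H3K27ac, 67.6% (65.8 to 69.3), and 64.8% of all WT STAT5 peaks. The difference was -8.75 points (-11.3 to -6.20). Retention rose steeply with the strength of the WT peak: when the whole WT list was divided into 10 equal groups by -log10 q, 19.8% of the sites in the weakest group were kept and 99.3% in the strongest. Within these groups the classes differed by -0.234 points (Mantel-Haenszel difference, -2.38 to 1.91). Sites without H3K27ac were thus kept less often, while at like WT strength the interval of the difference included 0. The KO library had the higher background coverage. With its peaks thinned to the WT coverage, 57.5% of the sites and 66.3% of distal sites with H3K27ac were expected to be kept.

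**Figure D1:**
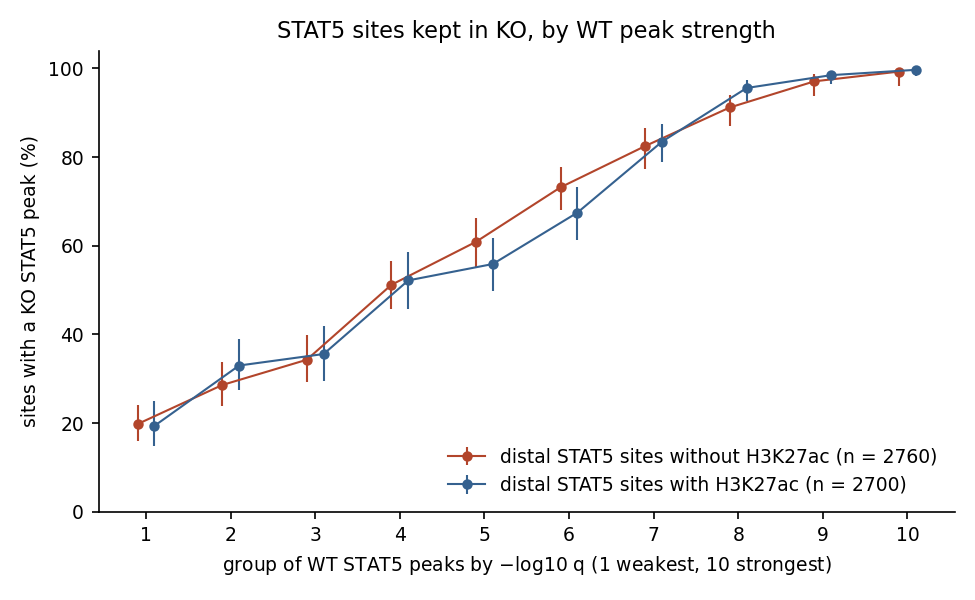
Share of distal STAT5 sites with a KO STAT5 peak (y axis, %) in 10 equal groups of all WT STAT5 peaks ranked by -log10 q (x axis), for sites without (red) and with (blue) H3K27ac in WT; bars are 95% Wilson intervals. Both classes rose together, from 19.8% and 19.4% in group 1 to 99.3% and 99.7% in group 10.

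Where a site was kept, its KO peak was usually the lower. The 1623 kept sites had a median STAT5 fold of 8.59 in WT and 7.77 in KO, and at 68.8% the KO fold was below the WT fold. At the 1824 kept sites with H3K27ac the medians were 10.7 and 8.50, and the KO fold was lower at 80.2%. Folds of separate libraries depend on their coverage, and the 1137 sites without a KO peak, with a median WT fold of 5.58, have no KO fold. Read from the KO list, the order of the classes was the same: of 2799 distal KO STAT5 peaks without KO H3K27ac, 67.2% (65.4 to 68.9) had a WT STAT5 peak, against 87.0% (85.4 to 88.5) of 1797 with it. KO peaks over a WTLPS p65 peak were set aside here too. These shares were not compared at like KO peak strength, so they do not show whether the classes differ beyond strength.

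Most of the sites lay in chromatin with H3K4me1. In WT, 2423 of the 2760 sites had an H3K4me1 peak, 87.8% (86.5 to 89.0), against 96.6% of distal sites with H3K27ac and 90.4% of all WT STAT5 peaks. The domains were shorter: the H3K4me1 peaks at the sites had a median width of 4777 bp, against 10683 bp at distal sites with H3K27ac and 1435 bp over the whole list. In WTLPS and KO the shares were 87.9% and 88.1%, within 1.37 points of WT by the Agresti-Min intervals of the paired differences. In KOLPS the share was 72.7%, a difference from KO of -15.4 points (-16.9 to -14.0). At distal sites with H3K27ac the same difference was -9.30 points (-10.5 to -8.07). Over all WT STAT5 peaks H3K4me1 went from 89.7% in KO to 76.9% in KOLPS. Promoter sites went from 74.9% to 60.4% and sites with p65 from 94.7% to 82.4%, so the lower KOLPS share was not particular to the sites. The KOLPS list also held fewer H3K4me1 peaks, 79120 against 93525 in KO. With all 4 lists cut at 1 common lowest -log10 p, the shares were 86.4%, 87.1%, 87.6% and 72.7% in WT, WTLPS, KO and KOLPS.

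H3K27me3 was rare, yet more frequent here than at distal sites with H3K27ac. It covered 131 sites in WT, 4.75% (4.01 to 5.60), against 0.296% (difference 4.45 points, 3.66 to 5.32) and 2.41% of all WT STAT5 peaks. Promoter sites had it at 3.37%. H3K27ac and H3K27me3 lie on the same lysine, and the classes were split by H3K27ac, so this difference is not independent of the choice. Of these 131 sites, 105 had H3K4me1 too, and 26 had H3K27me3 alone. In WTLPS, KO and KOLPS the share was 1.99%, 3.44% and 1.20%. The lists differed in size, from 96475 peaks in WT to 26960 in KOLPS, and at 1 common lowest -log10 p the 4 shares were 3.48%, 1.96%, 2.46% and 1.20%. The remaining 311 sites (11.3%) had neither mark in WT. Sites with both marks had H3K27ac in WTLPS at 9.52% and in KO at 1.90%. Of the 26 sites with H3K27me3 alone, 0 had H3K27ac in WTLPS, KO or KOLPS. This allows a share of up to 11.5% (3 divided by the number of sites, not a Wilson limit). H3K4me3, the promoter mark, lay at 6.01% of the 2760 sites in WT, against 19.3% of distal sites with H3K27ac (difference -13.3 points, -15.1 to -11.6).

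The strongest site with H3K27me3 and no H3K4me1 in WT lay in an intron of Slc5a1, a sodium-glucose cotransporter gene, at chr5:33121957-33122508, with the STAT5 motif in 2 places. Its STAT5 fold was 21.5 in WT and 17.0 in KO, its H3K27me3 fold in WT was 3.66, and H3K4me1 was listed in WTLPS, KO and KOLPS. The next sites of this kind, in an exon of Lars2 and an intron of Fbxw4 and near Stmn2, had STAT5 folds of 4.17, 3.57 and 3.24. They had peaks in 14 to 16 of the 30 lists and no motif at the summit, and so differed from the Slc5a1 site.

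Retention of STAT5 in KO went with H3K4me1. A KO STAT5 peak was listed at 62.7% (60.7 to 64.6) of sites with WT H3K4me1 and at 30.9% (26.2 to 36.0) of sites without. The sites without it were weaker, with a median STAT5 fold of 5.32 against 7.30. Within groups of like WT STAT5 strength, the difference was 12.6 points (7.57 to 17.7). It was 6.99 points (2.24 to 11.7) with the STAT5 summit required inside the partner peak and 7.76 points (3.00 to 12.5) with 50% of the STAT5 peak required to be covered. Sites with and without H3K27me3 were both kept at 58.8% (within-group difference 1.04 points, -6.52 to 8.60). Sites with and without SMC1 were kept at 60.4% and 58.0% (-3.14 points within groups, -6.46 to 0.187), and sites with and without CTCF at 58.4% and 58.8% (-2.88 points, -8.35 to 2.58). Of these marks and factors, H3K4me1 was the one whose within-group interval lay apart from 0. Sites with H3K4me3 in WT were kept at 68.1% (60.6 to 74.7) and sites without it at 58.2% (56.3 to 60.1). The H3K4me3 difference was not computed within strength groups.

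**Figure D2:**
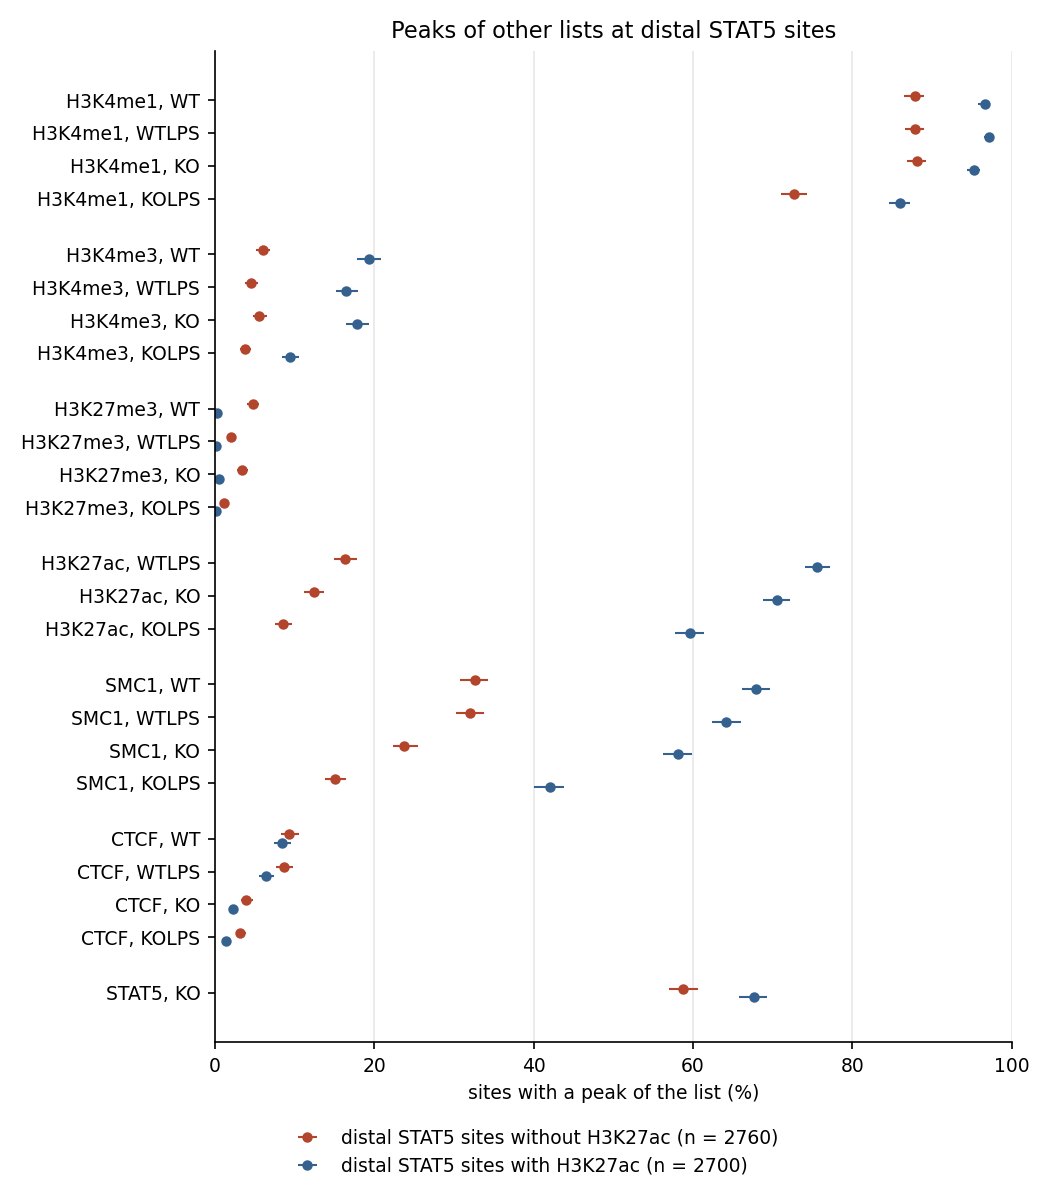
Share of distal STAT5 sites (x axis, %) that overlap a peak of each list drawn (rows; H3K4me1, H3K4me3, H3K27me3, H3K27ac, SMC1, CTCF and KO STAT5, without p65 and the lists of the choice), for sites without (red) and with (blue) H3K27ac in WT; bars are 95% Wilson intervals. SMC1 and H3K27ac separated the classes most (WT SMC1 32.6% against 67.9%), while CTCF in WT was at 9.31% against 8.41%. The classes were split by H3K27ac in WT, so its separation in other conditions is not independent of the choice.

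H3K27ac was absent in WT by choice, so its share in any other condition can only be at or above 0. An H3K27ac peak was listed at 451 sites in WTLPS, 16.3% (15.0 to 17.8), at 343 in KO, 12.4% (11.2 to 13.7), and at 237 in KOLPS, 8.59% (7.60 to 9.69). Over all WT STAT5 peaks the shares were 55.3%, 51.6% and 45.0%. Conversely, of the distal sites chosen for H3K27ac in WT, 75.6%, 70.5% and 59.6% had it in WTLPS, KO and KOLPS. A total of 2046 sites (74.1%, 72.5 to 75.7) had no H3K27ac peak in any of the 4 lists. For most of the class, then, the absence of the mark was not particular to the WT list.

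Between conditions that the choice did not use, KOLPS had H3K27ac at fewer of the sites than WTLPS (paired difference -7.75 points, -9.13 to -6.36), with 305 sites marked in WTLPS and not in KOLPS and 91 the other way. KOLPS also lay below KO (-3.84 points, -5.16 to -2.52). At distal sites with H3K27ac these differences were -16.0 points (-18.0 to -14.1) and -10.9 points (-12.8 to -9.02). KO lay below WTLPS (-3.91 points, -5.54 to -2.28), and the KO library also had the lowest coverage. With all lists thinned to that coverage, a step chosen after seeing the data, 13.6% of the sites were expected to have H3K27ac in WTLPS, 12.4% in KO and 8.35% in KOLPS. At this coverage WTLPS lay nearer to KO, and KOLPS remained the lowest of the 3.

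The share of sites with H3K27ac in another condition was higher near H3K27ac of WT than far from it. Of the 174 sites with a gap of at most 100 bp to a WT peak, 40.8% had H3K27ac in WTLPS, 39.1% in KO and 21.8% in KOLPS. Of the 633 sites over 50 kb away, 4.27%, 4.11% and 2.21% had it. The median H3K27ac fold at the sites was 5.26 in WTLPS, 5.15 in KO and 5.0 in KOLPS, against 4.57, 5.15 and 5.0 over all peaks of these lists and 8.19, 8.23 and 6.66 at distal sites with H3K27ac. Many touched the STAT5 peak at its edge, and the share with the STAT5 summit inside the H3K27ac peak was 8.44% in WTLPS, 5.22% in KO and 3.37% in KOLPS. SMC1 in WT fell with the gap too, from 56.9% to 23.9%, while retention in KO did not fall (52.9% and 58.3%).

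**Figure D3:**
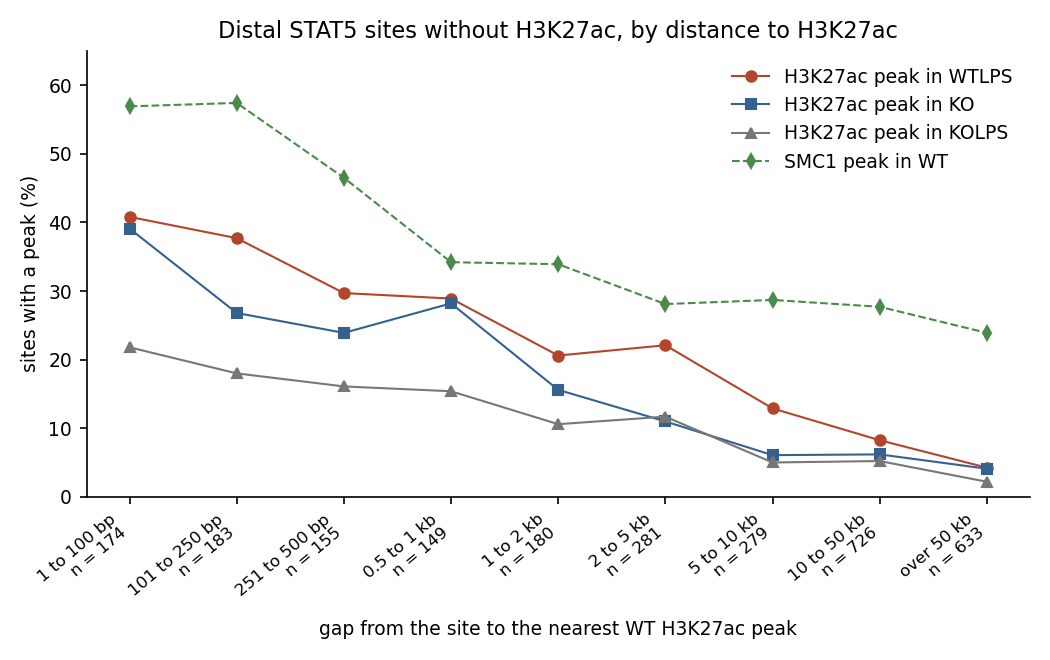
Share of the 2760 sites with a peak (y axis, %) of H3K27ac in WTLPS, KO or KOLPS (solid lines) or of SMC1 in WT (dashed), by the gap to the nearest WT H3K27ac peak (x axis, bins of unequal width with their n). H3K27ac in WTLPS ran from 40.8% of sites nearest to a WT peak to 4.27% of those over 50 kb away.

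The strongest sites with H3K27ac in WTLPS were the Ino80c and Gm49171 sites above, followed by sites in introns of Prkcb and Sipa1l1. The Prkcb site, in the gene of protein kinase C beta, lay at chr7:122322200-122322728, had STAT5 folds of 44.2 in WT and 39.9 in KO, and had H3K27ac at 5.92 in WTLPS and 5.15 in KO. The next WT H3K27ac peak was 14 bp away, and SMC1 was listed in all 4 conditions. The Sipa1l1 site, chr12:82189617-82190275, had STAT5 folds of 38.2 and 22.2 and H3K27ac in WTLPS alone, at 5.46. H3K27ac in KO went with kept STAT5: 72.3% (67.3 to 76.8) of sites with a KO H3K27ac peak were kept, against 56.9% (54.9 to 58.9) of those without, and within groups of like strength the difference was 8.19 points (3.90 to 12.5). With the STAT5 summit required inside the partner peak it was 4.73 points (-2.00 to 11.4), and with 50% of the STAT5 peak required to be covered 3.91 points (-3.43 to 11.2). For H3K27ac in WTLPS the within-group difference was 0.167 points (-3.87 to 4.21).

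SMC1 separated the classes more than any other measure that the choice did not use, H3K27ac of other conditions apart. In WT, 899 sites had SMC1, 32.6% (30.8 to 34.3), against 67.9% (66.1 to 69.7) of distal sites with H3K27ac and 58.4% of all WT STAT5 peaks. The difference was -35.4 points (-37.8 to -32.8), and -33.4 points (-35.9 to -30.8) within groups of like STAT5 strength. CTCF differed less: 257 sites had it in WT, 9.31% (8.28 to 10.5), against 8.41% and 9.55% of all WT STAT5 peaks (difference 0.904 points, -0.607 to 2.41). In WTLPS, KO and KOLPS, CTCF lay at 8.70%, 3.95% and 3.19% of the sites. These shares were above those of distal sites with H3K27ac, by 2.25 points in WTLPS (0.848 to 3.66), 1.69 in KO (0.773 to 2.63) and 1.74 in KOLPS (0.953 to 2.56). All WT STAT5 peaks had 8.16%, 3.47% and 2.47%, and promoter sites 12.7%, 7.29% and 5.05%. The differences in these 3 conditions were not computed within strength groups. Most SMC1 at the sites was without CTCF (698 sites), and 201 sites had both. At the 257 sites with CTCF, the CTCF and STAT5 summits were a median of 153 bp apart.

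In KO, SMC1 fell to 23.8% of the sites, a paired difference of -8.73 points (-10.2 to -7.24), and CTCF to 3.95% (-5.36 points, -6.28 to -4.44). At distal sites with H3K27ac these differences were -9.85 points (-11.4 to -8.28) and -6.15 points (-7.08 to -5.21), and over all WT STAT5 peaks SMC1 went from 58.4% to 50.5% and CTCF from 9.55% to 3.47%. Background coverage of the SMC1 lists was 5.40 fragments per base in WT and 5.34 in KO. In WTLPS, SMC1 (32.0%) differed from WT by -0.543 points (-1.87 to 0.781). In KOLPS it was 15.1%, a difference from WTLPS of -16.9 points (-18.5 to -15.3), and the KOLPS list held 17241 peaks against 57354. At distal sites with H3K27ac this difference was -22.3 points (-24.0 to -20.5), from a higher share of 64.2% in WTLPS. Of the 899 sites without H3K27ac that had SMC1 in WT, 40.3% (37.1 to 43.5) had it in KOLPS. At distal sites with H3K27ac that share was 57.1% (54.9 to 59.4). Over all WT STAT5 peaks SMC1 went from 57.7% in WTLPS to 40.2% in KOLPS. Of the 201 sites with both proteins in WT, 46.3% (39.5 to 53.2) still had CTCF in KO, against 27.2% (21.6 to 33.6) at distal sites with H3K27ac, and 51.7% (44.9 to 58.6) had SMC1. Of the 698 with SMC1 alone, 63.6% had SMC1 in KO. At distal sites with H3K27ac the SMC1 shares were higher, 71.8% (65.3 to 77.5) and 80.3% (78.3 to 82.1), and the Wilson intervals of the classes did not overlap in either state. Peak strength differed in the same directions. Over all sites with a WT peak, the median CTCF fold was 10.3, against 9.29 at distal sites with H3K27ac. The median SMC1 fold was lower than the 5.93 at distal sites with H3K27ac. These CTCF and SMC1 shares were not compared at like peak strength, so they do not show whether the classes differ beyond strength.

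**Figure D4:**
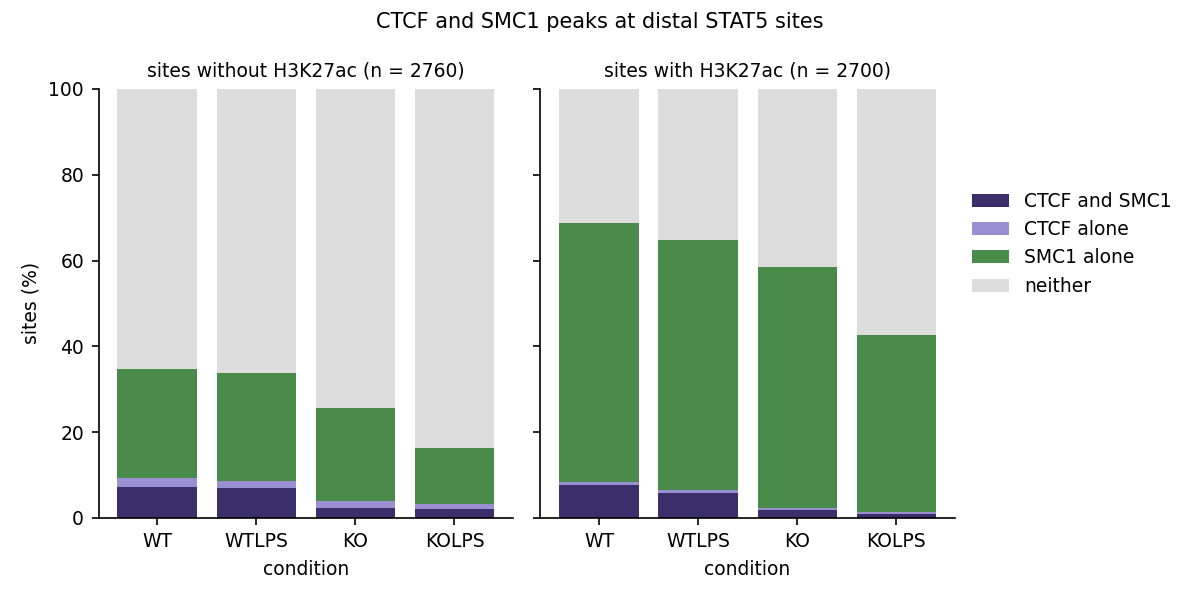
Share of distal STAT5 sites (y axis, %) with CTCF and SMC1, CTCF alone, SMC1 alone or neither in each condition (x axis), for sites without (left) and with (right) H3K27ac in WT. Sites with neither protein rose from 65.4% in WT to 74.5% in KO and 83.7% in KOLPS at sites without H3K27ac. At sites with H3K27ac they rose from 31.3% to 41.4% and 57.4%.

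The strongest sites with CTCF after the Neil3 and Prkcb sites lay near Nanos1, an RNA-binding protein gene, and in an intron of Gm2415. The Nanos1 site, chr19:60730801-60731689, had STAT5 folds of 36.5 in WT and 22.2 in KO, CTCF at 11.6 in WT and in no KO list, and SMC1 at 7.18 in WT and 4.26 in KO. The Gm2415 site, chr9:118908181-118909083, had STAT5 folds of 33.5 and 25.9, CTCF at 18.4 in WT and 17.0 in KO, and SMC1 in all 4 conditions. At the Neil3, Prkcb and Nanos1 sites STAT5 was thus listed in KO without CTCF.

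The STAT5 motif was the most frequent of the 8 motifs searched at the summits. Both strands were searched, in the 50 bp to either side of each summit and in windows of the same length 1 kb to either side of the same summits. TTCNNNGAA lay in 1191 of the 2760 windows, 43.2% (41.3 to 45.0), against 3.39% of the windows 1 kb away and 37.9% of all WT STAT5 summits. At distal sites with H3K27ac the share was 39.6% (difference 3.52 points, 0.909 to 6.13), and within groups of like STAT5 strength the sites without H3K27ac were higher by 8.01 points (5.46 to 10.6). With 1 mismatch allowed the shares were 75.3% and 74.7%, which were not compared within strength groups. The exact motif lay in 2 or more places in 4.24% of the sites, against 2.52%. Sites with p65 had it at 23.3%. The motif was present at 49.8% (47.4 to 52.2) of the sites kept in KO and at 33.7% (31.0 to 36.5) of those not kept, and within strength groups retention with and without the motif differed by 2.93 points (-0.304 to 6.17).

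The motifs of other factors were less frequent. GAGGAAGT of PU.1, the myeloid master factor, lay in 3.95% of the windows against 0.580% at 1 kb. TGANTCA of AP-1 lay in 8.77% against 3.19%, and TGTGGT of RUNX in 13.6% against 7.54%. GAAANNGAA of the IRF family (5.07% against 4.20%), TTGCNNCAA, the word searched for C/EBP (1.16% against 0.960%), GGGANTTTC of p65 (0.580% against 0.489%) and AGGGGGCG, a core of the CTCF motif (0.0725% against 0.0543%), were at or near the level of the surroundings. The word searched for C/EBP cannot match the shorter palindromic C/EBP consensus, so its share says nothing about sites of that form. Sites with a WTLPS p65 peak, where the p65 word lay in 2.44% of the windows, were set aside. The share of the p65 word here is thus not independent of the choice. At the 257 sites with CTCF, its summit was a median of 153 bp from the STAT5 summit. Windows of 50 bp to either side thus do not show whether those sites hold a CTCF motif. GAAANNGAA can overlap TTCNNNGAA, which ends in the same letters. Between the sites and distal sites with H3K27ac the shares of PU.1 (-0.125 points, -1.18 to 0.922) and AP-1 (-0.269 points, -1.78 to 1.24) did not differ beyond counting error, and RUNX was higher at the sites by 1.77 points (0.00413 to 3.54). A match is a stretch of letters and not evidence of binding.

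**Figure D5:**
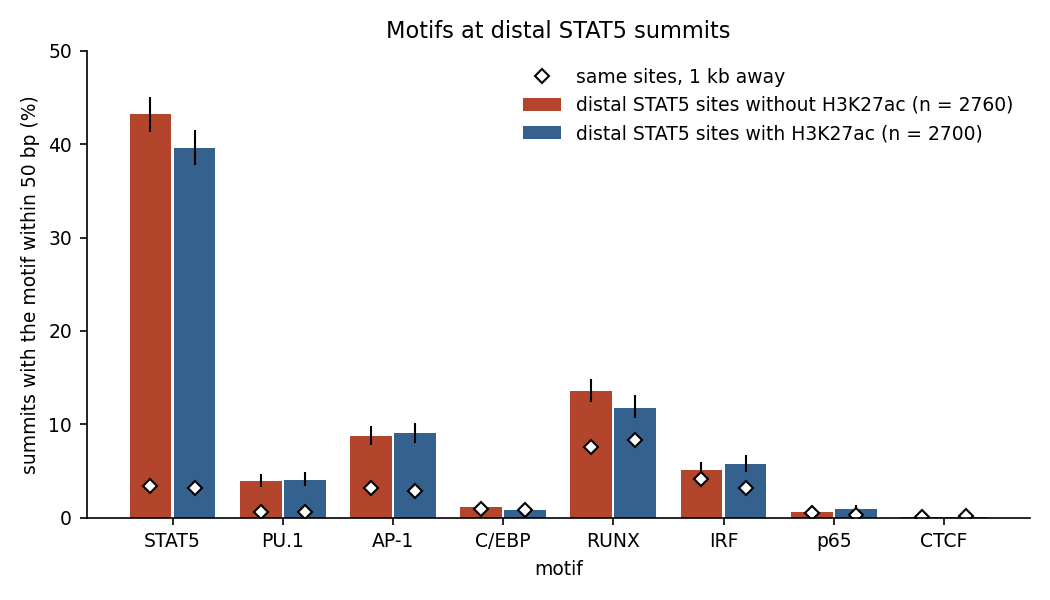
Share of summits (y axis, %) with each of 8 motifs within 50 bp (x axis), for distal STAT5 sites without (red) and with (blue) H3K27ac in WT; lines are 95% Wilson intervals and diamonds the share in windows 1 kb away. The STAT5 motif stood at 43.2% and 39.6%, against 3.39% and 3.19% at 1 kb.

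Genes of the STAT5 pathway were asked for a site within 50 kb of the start site, which 11.4% of all protein-coding genes had. None of the 7 genes of the GM-CSF receptor and its JAK-STAT proteins had one. Of 7 STAT inhibitors, Socs1 and Pias1 had one. Of 17 STAT5 targets in blood cells, 7 did (Bcl2l1, Bcl6, Ccnd1, Ccnd2, Ccnd3, Irf8 and Pim1), of 12 targets in lymphocytes, liver or mammary gland 4 (Ifng, Igf1, Prf1 and Wap), and of 12 myeloid and dendritic cell factors Cebpb. A WT STAT5 peak of any class was found for 5, 6, 13, 5 and 8 genes of these lists, in the same order. The share of all protein-coding genes with such a peak was not counted. These lists are short and their genes were chosen with results of these data known, so the counts are a description.

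Bcl2l1, which encodes the survival protein BCL-XL, held the strongest of these sites, in an intron at chr2:152788886-152790034. Its STAT5 fold was 25.8 in WT and 16.6 in KO, SMC1 was listed in all 4 conditions, and H3K27ac in WTLPS, KO and KOLPS, with the nearest WT H3K27ac peak 669 bp away. A site 10.2 kb downstream of the start of Pim1, a survival kinase gene, chr17:29500670-29501203, had STAT5 folds of 18 and 8.13 and no H3K27ac in any list. Socs1, which encodes a feedback inhibitor of JAK kinases, had 3 sites 10.8 to 16.6 kb downstream of its start, with STAT5 folds of 10.3 to 11.2 in WT. KO peaks were listed at 2 of them, at 9.24 and 8.13, and H3K27ac in WTLPS at 2. All 5 sites had H3K4me1 in WT.

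The cyclin genes, which encode G1 cell cycle regulators, differed among themselves. The Ccnd2 site, 4.01 kb upstream of the start, had STAT5 folds of 8.59 in WT and 7.40 in KO and H3K27ac in WTLPS. The Ccnd1 sites had 7.76 and 6.70 in WT and 6.97 and 5.85 in KO, with no H3K27ac in any list. The intronic Ccnd3 site, 4.99 kb from the start, had 10.3 in WT and no KO peak, and carried CTCF in WT, WTLPS and KO. Ifng, the interferon gamma gene of lymphocytes, had 3 sites at 22.6 to 39.9 kb with STAT5 folds of 4.72 to 9.45, all with H3K4me1 in the 4 conditions and none with H3K27ac. The Irf8 site, 27.1 kb downstream of the start of that dendritic cell factor's gene, had 8.16 in WT and no KO peak. Of the 2 Cebpb sites, kept at 7.33 and 4.72 in KO, 1 had H3K27ac, in KO.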

How the data were processed

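The peaks were called by the authors with MACS2 against input, 1 list per antibody and condition (30 lists, 4 inputs without a list). The submitters' processing notes name BWA 0.7.12, Picard 1.77, MACS2 2.1.2 and deepTools 3.1.3 and the build mm10. Replicates of all experiments were combined once found reproducible, by the study's general statement, whereas its methods section has peaks called per replicate, with other tool versions. The labels do not say which of these a list is. The sources give different catalogue numbers for the STAT5 antibody, 1 of total and 1 of phosphorylated STAT5. The deposited lists hold fold enrichment (a ratio over local background) and -log10 p and q values. Narrow lists (all but H3K4me1 and H3K27me3) also give a summit.

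Peaks were shared when they overlapped by at least 1 bp. Start sites were those of each GENCODE M21 gene's transcript of greatest exonic length. Sequences and repeats came from RefSeq's GRCm38 assembly. Coverage was estimated by solving each peak's fold and p for its fragments, and thinning kept each fragment with the ratio of coverages. Difference intervals were Newcombe, Agresti-Min (paired) and Mantel-Haenszel with Sato's variance (within strength groups). Intervals, overlaps, motif search and coverage were tested on simulated data with Python 3.11.15, numpy 2.4.6 and pysam 0.24.0. Named sites were the highest by WT STAT5 -log10 q: 8 kept in KO, 5 not kept, and 4 each with WTLPS H3K27ac, with WT CTCF, and with WT H3K27me3 but no H3K4me1, leaving out 8 sites with peaks in 20 or more lists. The sites and gene lists were chosen with earlier results of these data known. Alternatives varied overlap, thresholds, promoter width and the sites left out. A list of peaks does not show the signal below its threshold, so a site without a peak may still have signal.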

Additional observations from a re-analysis of the deposited data

How the results depend on the processing

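The number of sites stayed within 1.5 times of 2760 under the 6 alternatives that apply, and the class difference in retention (-8.75 points, -0.234 within strength groups) stayed inside its interval under all 9. Retention (58.8%) was 56.2% with 50% of the STAT5 peak covered, 56.8% with the summit inside the KO peak, 53.3% with KO peaks of -log10 q of at least 5 and 67.8% with WT STAT5 peaks of at least 5. These 4 settings moved other shares too. With 50% covered, H3K4me1 was 85.5%, H3K27me3 3.84%, CTCF 7.5%, SMC1 28.8%, and H3K27ac 7.93% in WTLPS, 4.49% in KO and 2.79% in KOLPS. With the summit inside, they were 85.7%, 3.91%, 7.54%, 30.1%, 8.44%, 5.22% and 3.37%. With partner peaks of -log10 q of at least 5, H3K27ac was 8.41%, 5.47% and 3.8%. With WT STAT5 peaks of at least 5, H3K4me1 was 91.6% and the motif 47.3%. With no WT H3K27ac peak within 1 kb, H3K4me1 was 85.3%, H3K27me3 5.96%, SMC1 27.3%, and H3K27ac 10.6%, 7.0% and 5.62%. At a common lowest -log10 p, H3K4me1 was 86.4% and H3K27me3 3.48%. With the H3K27ac lists thinned to 1 coverage, chosen after seeing the data, WTLPS was 13.6%. The motif share was 62.5% within 100 bp of the summit and 75.3% (73.6 to 76.9) with 1 mismatch allowed. With 1 mismatch, distal sites with H3K27ac had it at 74.7% (73.1 to 76.3). No share of windows 1 kb away is given for either setting. Each setting lets fewer or more bases or peaks count by its construction. The retention difference by H3K4me1 was 6.99 points (2.24 to 11.7) with the summit inside, and that by KO H3K27ac ran from 3.91 to 10.4 points. The class difference in SMC1 was -32.3 points with 50% covered and -40.7 points with no WT H3K27ac peak within 1 kb. The promoter definitions, sites in 20 or more lists and chromosomes X and Y moved none of these shares outside its interval. No pairing of samples was possible because each group has 1 list, and the paired differences given are over the same sites.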

Other observations

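A set of 112 of the 2760 sites (4.06%) overlapped no peak of any other antibody in any condition. They had a median STAT5 fold of 4.72, against 7.30 at the other 2648, a KO STAT5 peak at 14.3% against 60.7%, and the STAT5 motif at 18.8% against 44.2%. Their summit lay in a repeat at 31.2% against 15.5%, and 17.0% were on chromosome X against 2.76%. Over all 2760 sites, 3.33% were on chromosome X, against 0.889% of distal sites with H3K27ac (difference 2.44 points, 1.70 to 3.24). A p65 peak was listed in KOLPS at 14 of the sites (0.507%), against 0.667% of distal sites with H3K27ac, which also lack it in WTLPS by choice (difference -0.159 points, -0.595 to 0.261), and 7.17% of all WT STAT5 peaks. It was listed in WT or KO at 0 of 2760. This allows a share of up to 0.109% (3 divided by the number of sites, not a Wilson limit). Of the 299 WT STAT5 peaks with p65 in WT, 288 also had it in WTLPS and were set aside by the choice.

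With summits joined when at most 20 kb apart, 531 sites lay in 248 runs of 2 or more, and 4 runs held at least 4. The longest, 6 sites at chr16:3243026-3270448 near Olfr161, had no STAT5 fold above 4.25, SMC1 at all 6 and H3K4me1 at 3. A run of 4 near Gsdmc at chr15:63595012-63613422 reached a STAT5 fold of 10.7, with H3K4me1 at all 4 and H3K27ac in WTLPS at 2. Among the motif copies at the sites, TTCCAGGAA made up 18.8% and TTCTCAGAA 15.2%, each counted together with its reverse complement.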
